A study of Homo sapiens with 9 samples.

Results

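DDB2, DDB1, XPC, ERCC5, POLH and RRM2B are 6 DNA repair genes that were grouped here as under the control of the transcription factor p53. The grouping does not show that each of them, DDB1 among them, is a direct target. They were chosen by name for their roles in nucleotide excision repair, translesion synthesis and dNTP supply, 6 of the 78894 genes counted. They were followed in RNA-seq of stable HEK293T lines that expressed WT p53, G245S p53 or R273H p53, with 3 biological replicates of each. HEK293T is a human embryonic kidney line that also carries its own p53 and the SV40 large T antigen, which binds p53. G245S and R273H are hotspot substitutions of the DNA-binding domain. All 9 libraries came from cells transduced with lentivirus and kept in 1.5 µg/mL puromycin, and no untransduced line was analysed here. The promoter of the integrated p53 gene, and whether a line was 1 clone, are not given in the sources used here. The labels name no DNA-damaging agent.

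Nucleotide excision repair removes bulky lesions such as those left by ultraviolet light. DDB2 binds the lesion together with DDB1, which joins it to a CUL4 ubiquitin ligase, and XPC then opens the site for the later factors. ERCC5, also called XPG, is a nuclease that cuts the damaged strand. POLH, DNA polymerase eta, copies past ultraviolet lesions that stall replication, and RRM2B is the ribonucleotide reductase subunit that p53 induces to supply dNTPs. WT p53 binds DNA as a tetramer at a pair of 10-base motifs, called the p53 consensus, that may be set apart by a short gap.

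The region around the start of each gene was searched for this pair, since WT p53 is known to bind such DNA, on both strands from 1000 bases before to 3000 bases after the start of the reference (MANE) transcript in GRCh38, with a gap of at most 13 bases. Of 19061 genes searched in the same way, 84 (0.441%) held a pair without a mismatch, and DDB2 was among them. Its pair began 5 bases after the start, in the 5′ UTR exon, at chr11:47214979-47214999 on the plus strand. The closest pair in XPC lay in the 5′ UTR exon at chr3:14178570-14178589 on the minus strand, with 3 mismatches. That of POLH lay in an intron at chr6:43576687-43576716 on the plus strand, with 2 mismatches. In DDB1 it lay in an intron of the MANE transcript at chr11:61332523-61332544 on the minus strand, with 3 mismatches, and in ERCC5 in an intron at chr13:102846981-102847005 on the plus strand, with 2 mismatches. Pairs with up to 2 mismatches were found for 71.1% of all genes and pairs with up to 3 for 99.9%, so that of the pairs shown only that of DDB2 was rare among genes. The closest pair of RRM2B, with 1 mismatch, is described with that gene below, and its sequence is not shown. Pairs with at most 1 mismatch were found for 10.5% of genes. The sequences are given 5′ to 3′ to let the intact pair of DDB2 be read beside the others, with bases that match the consensus in capitals and gaps and mismatches in lower case.
DDB2: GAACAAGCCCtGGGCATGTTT
XPC: GAAtTTGCCCAGACAAGCaa
POLH: AAACTTGTTTtgtgcggattGGGgTAaCTC
DDB1: AGAtTTtCCTgtGGGgAAGTCT
ERCC5: GAAaTTGCCTacatgAGAgAAGTTT

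The sequence of DDB2 has a gap of 1 base between its 10-base motifs, and that of XPC has none. A match in letters is a description of the DNA and not a measured binding site. In RefSeq promoters of GRCh38.p14, which run from 250 bases before to 50 after a start, 10 of 27305 genes (0.0366%) held an intact pair. Of the 5 members with an entry, DDB2 was the 1 that held it, in 1 of its 2 promoters. The longer stretch was chosen after the data had been seen.

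Library totals ranged from 7325514 to 9667306 counts, apart from WT replicate 3 with 1486315 counts, which was left out of the fits for its depth and is shown beside them. All 8 markers of HEK293 cells listed were detected in every fitted library, with summed levels of 880–969 CPM in WT, 814–942 CPM in G245S and 863–903 CPM in R273H. The 8 markers of other cell types summed to 25.5–39.9, 17.97–35.4 and 31.5–66.4 CPM, of which COL1A1 and COL3A1 made up the most, while CD3E and PECAM1 were at 0. WT replicate 3 stood apart, with KRT8 at 54.6 CPM against 9.61–12.0 CPM in the other libraries. Levels are TMM-scaled CPM, counts set to a common library size. In bulk RNA, fewer cells that express a gene and less RNA per cell cannot be told apart.

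DDB2, the lesion-binding subunit, was the member past the threshold as lower in both mutants, at 38.0% of its WT level in G245S and 32.7% in R273H. Without an untransduced line, a rise in the WT line and a fall in the mutant lines cannot be told apart. DDB2 (ENSG00000134574, GRCh38 chromosome 11, 47214465 to 47239217, plus strand) was at 26.6 and 24.95 CPM in WT replicates 1 and 2, and at 28.7 CPM in WT replicate 3. It was at 9.54, 9.37 and 10.4 CPM in the G245S replicates and at 7.34, 9.26 and 8.64 CPM in the R273H replicates. Every mutant library lay below every WT library, with a wide gap, and the replicates of a line lay close together. WT averaged 25.8 ± 1.13 CPM (SD, n = 2). The mean was 9.78 ± 0.566 CPM (SD, n = 3) for G245S, whereas R273H stood at 8.41 ± 0.976 CPM (SD, n = 3).

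The log2 fold change of DDB2 was −1.39 in G245S (SE 0.123, 95% interval −1.66 to −1.13, adjusted p = 0.00018 by the quasi-likelihood test of edgeR, adjusted after Benjamini and Hochberg). In R273H it was −1.62 (SE 0.131, 95% interval −1.90 to −1.34, edgeR's adjusted p = 3.16e-05). With both mutants set against WT in 1 fit of the 3 groups it was −1.51 (SE 0.108, edgeR's adjusted p = 1.54e-06). DDB2 had the 2nd smallest p of all tested genes in each of these comparisons. Between the mutants the difference was −0.23 on the log2 scale (R273H minus G245S, 95% interval −0.53 to 0.07), which did not pass (edgeR's adjusted p = 0.994). The order of its levels was thus WT, then G245S and R273H, and the last pair did not differ beyond its spread.

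DDB2 was the 1 member of 6 past the threshold as lower in G245S, where 0.107% of the 15893 genes tested were, and again the 1 of 6 in R273H, where 0.112% of 16022 were. In the fit of both mutants against WT the share over all 16398 genes was 0.177%. In R273H against G245S no member passed as lower, nor did any of the 15614 genes tested by edgeR (0%). In that comparison 741 genes had an unadjusted p under 0.05, none of them a member, and DESeq2 called 1 gene, which was no member. All 6 members passed the filter on low counts in every comparison.

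**Figure D1:**
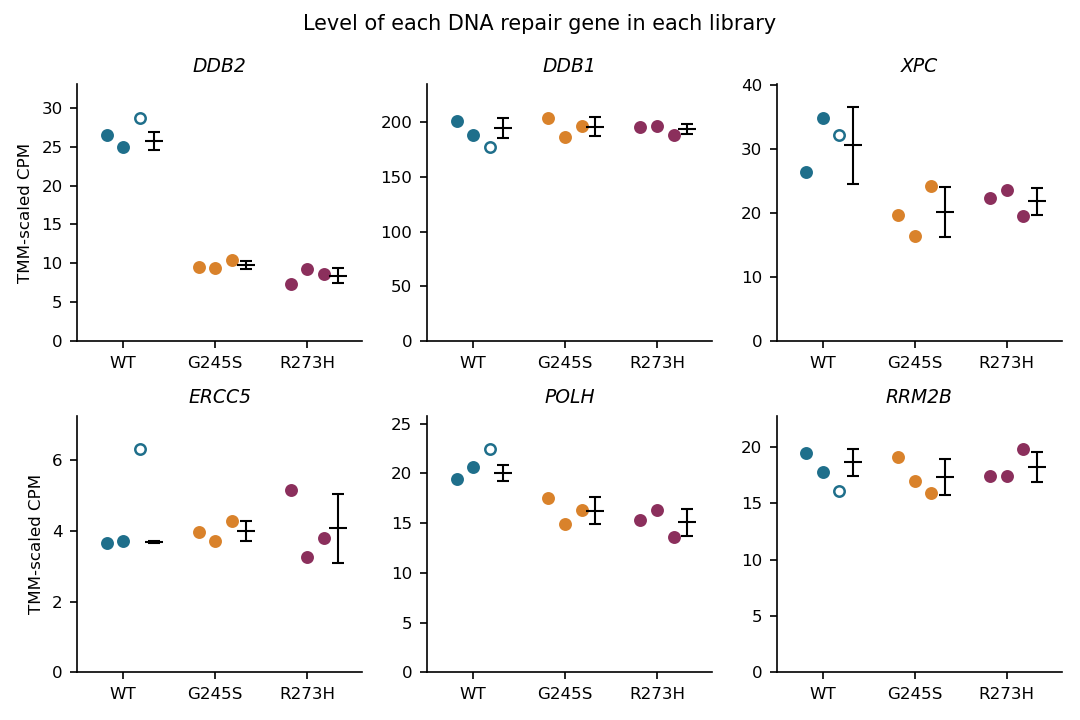
Level of each of the 6 genes in TMM-scaled CPM (vertical axis, from 0) in every library of the WT, G245S and R273H p53 lines (horizontal axis). Filled points are libraries used in the fits, the open point is WT replicate 3, and bars give the mean and SD of the fitted libraries. DDB2 is at 24.95–26.6 CPM in the fitted WT libraries and at 7.34–10.4 CPM in the mutants. XPC and POLH lie lower in the mutants without overlap, and DDB1 stays between 178 and 204 CPM.

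DDB1 stood at a nearly level value in all 9 libraries, in contrast to its partner. DDB1 (ENSG00000167986, GRCh38 chromosome 11, 61299451 to 61342596, minus strand) was at 201 and 188 CPM in the fitted WT libraries and at 178 CPM in WT replicate 3. The G245S replicates were at 204, 187 and 197 CPM and the R273H replicates at 196, 197 and 189 CPM, so that the groups overlapped throughout. The 95% interval of the log2 difference from WT ran from −0.18 to 0.21 in G245S and from −0.19 to 0.18 in R273H (edgeR's adjusted p = 0.983 and 1.00). The sign of this difference turned with the libraries left in for both mutants, and with scaling in R273H alone.

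Because both proteins act as a complex, DDB2 was also read within each library against DDB1, which does not depend on scaling. For every 100 counts of DDB1 there were 13.2 and 13.3 counts of DDB2 in the fitted WT libraries and 16.2 in WT replicate 3. The G245S replicates held 4.68, 5.02 and 5.28 counts, and the R273H replicates 3.75, 4.74 and 4.58 counts. The ratio was thus lower in each mutant library than in any WT library.

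XPC, the damage sensor of the global genome branch, had a lower level in both mutants but missed the threshold. XPC (ENSG00000154767, GRCh38 chromosome 3, 14145145 to 14178621, minus strand) was at 26.3 and 34.8 CPM in the fitted WT libraries and at 32.2 CPM in WT replicate 3. It was at 19.7, 16.4 and 24.2 CPM in G245S and at 22.3, 23.5 and 19.5 CPM in R273H. No mutant library reached the lowest WT library, although the highest G245S library came close to it. The WT libraries were themselves spread, with a mean of 30.6 ± 5.997 CPM (SD, n = 2). Mean levels were 20.1 ± 3.88 CPM (SD, n = 3) for G245S and, for R273H, 21.8 ± 2.05 CPM (SD, n = 3).

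The log2 fold change of XPC was −0.59 in G245S (95% interval −0.92 to −0.26, edgeR's adjusted p = 0.332) and −0.48 in R273H (95% interval −0.77 to −0.20, edgeR's adjusted p = 0.381). In the fit of both mutants against WT it was −0.54 (SE 0.132, edgeR's adjusted p = 0.171). Without the filter on low counts XPC passed in all of these, with edgeR's adjusted p = 0.00213 in G245S, 0.0306 in R273H and 8.19e-04 for both. In that setting more genes passed in general, 144 of 35067 in G245S beside 20 of 15893 with the filter. With DESeq2 XPC did not pass in any of these comparisons (DESeq2's adjusted p = 0.582 in G245S). Without WT replicate 2, the higher of the fitted pair, its log2 fold change was −0.38 in G245S, −0.28 in R273H and −0.33 for both. The mutants differed by 0.11 on the log2 scale (R273H minus G245S, 95% interval −0.18 to 0.39).

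POLH, the translesion polymerase, also had a lower level in both mutants and missed the threshold. POLH (ENSG00000170734, GRCh38 chromosome 6, 43576185 to 43620523, plus strand) was at 19.5 and 20.6 CPM in the fitted WT libraries and at 22.4 CPM in WT replicate 3. The G245S replicates were at 17.6, 14.9 and 16.3 CPM and the R273H replicates at 15.3, 16.3 and 13.6 CPM. All mutant libraries lay below all WT libraries, the nearest being G245S replicate 1 below WT replicate 1.

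WT cells held POLH at a mean of 20.03 ± 0.809 CPM (SD, n = 2). G245S cells averaged 16.3 ± 1.34 CPM (SD, n = 3), while R273H cells averaged 15.1 ± 1.37 CPM (SD, n = 3). Its log2 fold change was −0.29 in G245S (95% interval −0.55 to −0.02, edgeR's adjusted p = 0.725) and −0.41 in R273H (95% interval −0.68 to −0.15, edgeR's adjusted p = 0.517). For both mutants it was −0.35 (SE 0.108, edgeR's adjusted p = 0.408). R273H and G245S differed by −0.12 on the log2 scale (95% interval −0.38 to 0.13), within their spread.

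DDB2, XPC and POLH were the 3 of 6 members whose 6 mutant libraries all lay below both fitted WT libraries, as did 4.57% of the genes tested, and below all 3 WT libraries, as did 2.29%. The same 3 members had an unadjusted p under 0.05 as lower in G245S (3.30% of all genes), in R273H (3.33%) and in both mutants against WT (3.89%). Both mutants were compared with the same WT libraries, so these shares are not independent of each other. The median log2 fold change of the 6 members was −0.19 in G245S, −0.22 in R273H and −0.21 for both, beside medians of 0.0034, 0.0023 and −0.0020 over all genes tested.

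RRM2B, the p53-induced reductase subunit, was at similar levels in the 3 lines. RRM2B (ENSG00000048392, GRCh38 chromosome 8, 102204502 to 102238961, minus strand) was at 19.5 and 17.8 CPM in the fitted WT libraries and 16.1 CPM in WT replicate 3. It was at 19.1, 16.9 and 15.9 CPM in G245S and at 17.4, 17.4 and 19.8 CPM in R273H, with full overlap of the groups. The log2 difference from WT was −0.09 in G245S (95% interval −0.37 to 0.18) and −0.03 in R273H (95% interval −0.29 to 0.23), with edgeR's adjusted p = 0.933 and 0.997. Its sign turned with the choice of WT libraries. These intervals leave room for a level of 77.5% or 81.8% of WT but not for a difference of the size of that of DDB2. The closest p53 pair of RRM2B lay 2102 bases after its start with 1 mismatch, and 10.5% of genes held a pair with at most 1 mismatch.

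ERCC5, the nuclease, had the lowest counts of the set, and its values are uncertain. ERCC5 (ENSG00000134899, GRCh38 chromosome 13, 102845831 to 102875995, plus strand) was at 3.66 and 3.71 CPM in the fitted WT libraries and 6.30 CPM in WT replicate 3, the latter from 9 counts. It was at 3.96, 3.72 and 4.29 CPM in G245S and at 5.16, 3.27 and 3.79 CPM in R273H, and the groups overlapped. The read-through gene BIVM-ERCC5 spans the whole of ERCC5 on the same strand and held between 89.7% and 111% of its count in each library, so that reads of these genes could not be told apart.

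The log2 fold change of ERCC5 was 0.12 in G245S (95% interval −0.37 to 0.61) and 0.16 in R273H (95% interval −0.38 to 0.69), with edgeR's adjusted p = 0.960 and 0.994, and it turned negative with other WT libraries. With the counts of both genes summed, an alternative chosen after the data had been seen, it was 0.16 and 0.17. At 24–45 counts per fitted library, the counting error alone was 14.9–20.4% of a value if counts are taken as whole reads. The counts of ERCC5 hold fractions of reads, so these percentages are approximate. For DDB2 the counting error was 6.56–12.5%, and for DDB1 2.23–2.63%.

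**Figure D2:**
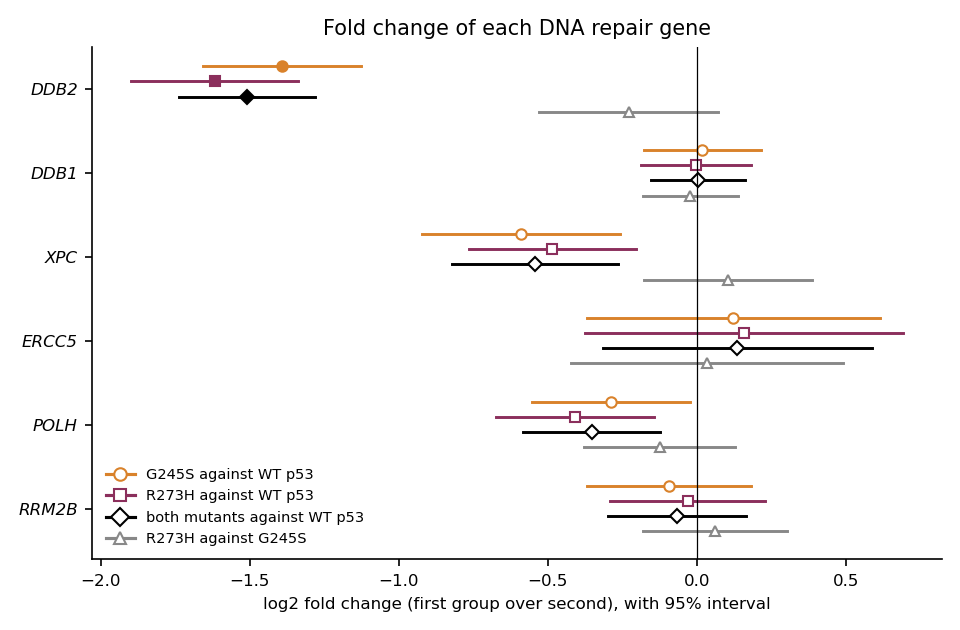
Log2 fold change of each gene (horizontal axis) with its 95% interval in 4 comparisons, where filled symbols have an adjusted p under 0.05. DDB2 is the member with filled symbols, at −1.39, −1.62 and −1.51, while the intervals of XPC and POLH against WT lie below 0 without passing, and those of DDB1, RRM2B and ERCC5 span 0.

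Genes that start next to a member or overlap it were read in the same fits. LSM3 starts 196 bases from XPC on the other strand and was at 307 and 264 CPM in the fitted WT libraries and 251–312 CPM in the mutants. XPO5 starts 147 bases from POLH on the other strand and was at 62.6 and 64.6 CPM in WT and 57.8–70.3 CPM in the mutants. The fitted WT libraries of both neighbours lay within the range of the mutants, unlike those of XPC and POLH. WT replicate 3 was at 266 CPM for LSM3, within that range, and at 51.1 CPM for XPO5, below it. For both mutants against WT the log2 difference was −0.04 for LSM3 (95% interval −0.23 to 0.15, with a sign that turned without WT replicate 1) and 0.04 for XPO5 (95% interval −0.14 to 0.22).

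GTPBP2 overlaps POLH on the other strand by 15208 bases and had a log2 fold change of 0.34 (edgeR's adjusted p = 0.637), opposite in sign to POLH. TKFC overlaps DDB1 on the other strand by 9377 bases and was at −0.26 (edgeR's adjusted p = 0.625). Neither passed, and the counting was strand-specific. The remaining overlapping genes, apart from BIVM-ERCC5, held at most 7 counts in a library.

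Among 14 named partners of the members none passed the threshold of edgeR in any comparison, while DESeq2 called PCNA for both mutants against WT. In that comparison 4 partners (28.6%) had an unadjusted p under 0.05 by edgeR, beside 6.90% of all genes, and 11 (78.6%) were lower by sign, beside 50.7%. Their median log2 fold change was −0.08. PCNA, the sliding clamp on which POLH acts, was at 406 and 354 CPM in the fitted WT libraries and 280–328 CPM in the mutants. Its log2 fold change was −0.34 (95% interval −0.51 to −0.16, edgeR's adjusted p = 0.171), and it passed with DESeq2 (DESeq2's adjusted p = 0.0326) and without the filter on low counts (edgeR's adjusted p = 0.0409). GADD45A, a damage-induced p53 target, was at 19.3 and 23.2 CPM in the fitted WT libraries and 11.8–17.5 CPM in the mutants. WT replicate 3, at 16.8 CPM, lay within the range of the mutants. Its log2 fold change was −0.53 (edgeR's adjusted p = 0.134), and −0.65 to −0.35 over the 21 alternatives. Of these it passed in 1, that without the filter (edgeR's adjusted p = 0.00875).

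RRM1, the large reductase subunit that pairs with RRM2B, had a log2 fold change of −0.25 (95% interval −0.43 to −0.07), and RRM2, the S-phase subunit, one of −0.19 (95% interval −0.34 to −0.03), with edgeR's adjusted p = 0.503 and 0.623. XPA, which verifies the lesion, was at −0.17 (95% interval −0.36 to 0.01). Among the partners of DDB2 and XPC in lesion recognition, CUL4A, CUL4B, RBX1, CETN2 and RAD23B lay between −0.08 and 0.07.

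The other repair genes were counted in 11 lists of 6 to 29 genes, and 130 of their 131 genes were tested for both mutants against WT. TYMS, thymidylate synthase of the dNTP supply list, was the 1 gene past the threshold, as lower. Its log2 fold change was −0.43 (edgeR's adjusted p = 0.0141), from 142 and 131 CPM in the fitted WT libraries to 97.3–108 CPM in the mutants. Without WT replicate 1 it was −0.36 and without WT replicate 2 it was −0.48, and neither passed (edgeR's adjusted p = 0.314 and 0.0916). With the filter on low counts, no gene of the lists passed in a single mutant against WT by edgeR, and DESeq2 called TYMS in R273H. Without the filter edgeR called TYMS in G245S, and GADD45A and TYMS in R273H. With the filter, the unadjusted p was under 0.05 for 8.46% of list genes against 6.66% of all genes tested in G245S, and for 9.23% against 6.11% in R273H. For both mutants against WT it was under 0.05 for 13.1% of list genes against 6.90% of all genes tested.

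By role, the median log2 fold change for both mutants was 0.02 in lesion recognition and the CUL4 ligase, −0.01 in transcription-coupled repair, −0.03 in TFIIH and −0.06 in incision and RPA. It was −0.09 in translesion synthesis, −0.09 in dNTP supply and −0.17 in other p53-linked repair genes. In all lists together the median was −0.05, with 73.1% of genes lower by sign, beside 50.7% of all genes tested. None of the single genes in the nucleotide excision repair lists came near DDB2, the lowest being HMGN1 at −0.24 and ERCC6 at −0.19.

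**Figure D3:**
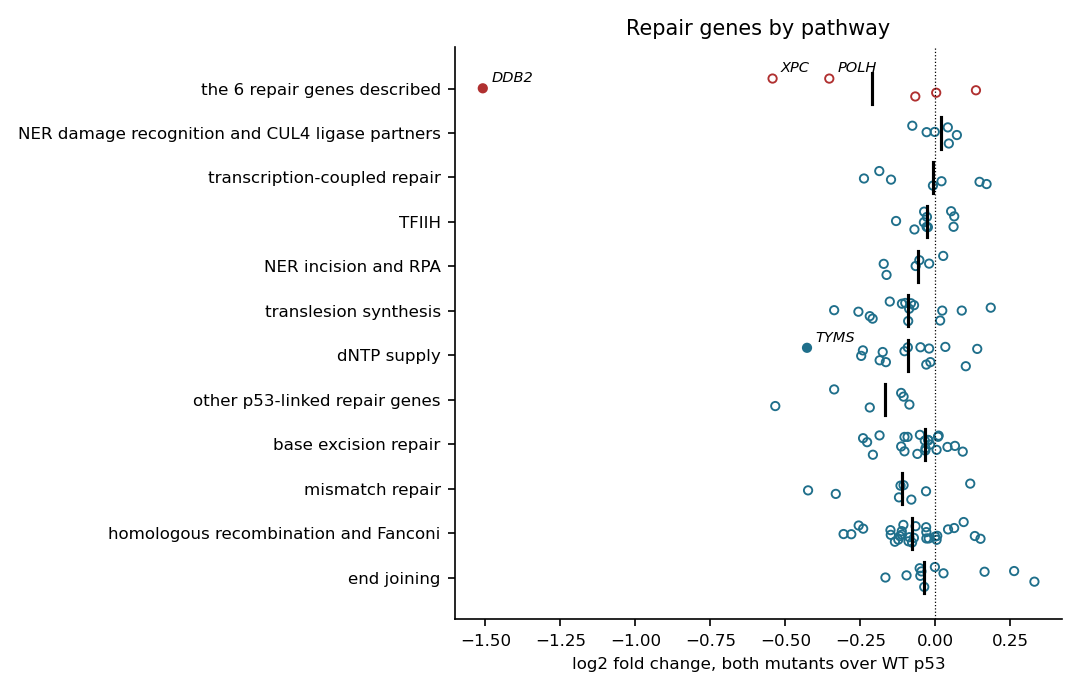
Log2 fold change for both mutants against WT p53 (horizontal axis) of every tested gene of the 6 described and of 11 repair lists (vertical axis), with black bars at the medians and a dotted line at the median of all genes. Filled points have an adjusted p under 0.05, and these are DDB2 at −1.51 and TYMS at −0.43.

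MDM2 and CDKN1A served as reference p53 targets. MDM2, the ubiquitin ligase of p53, was at 79.0 and 84.3 CPM in the fitted WT libraries and 41.8–47.1 CPM in the mutants, with a log2 fold change of −0.87 for both (edgeR's adjusted p = 1.11e-05). CDKN1A, the cell cycle inhibitor p21, was at 14.9 and 18.4 CPM in WT and 7.31–14.2 CPM in the mutants, with a log2 fold change of −0.60 (edgeR's adjusted p = 0.176). CDKN1A passed without the filter (edgeR's adjusted p = 0.00465). Of these, only DDB2 and MDM2 passed with the filter.

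The profile of DDB2 over the 8 fitted libraries was compared with those of 11537 genes of at least 5 CPM, as the root mean square difference of log2(CPM + 0.5) after centring each gene on its mean. The smallest differences were those of TP53I3, a p53-induced quinone oxidoreductase (0.213), TYMSOS, the antisense gene at TYMS (0.243), FDXR, ferredoxin reductase (0.256), ENHO, which encodes the peptide adropin (0.258), and MDM2 (0.276). Each passed the threshold as lower in both mutants, which is no separate result, since these genes were chosen for a profile like that of DDB2. Their log2 fold changes of −0.82 to −1.16 in G245S and −0.90 to −1.35 in R273H were all smaller in size than those of DDB2, and the likeness is a description over 8 libraries.

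**Figure D4:**
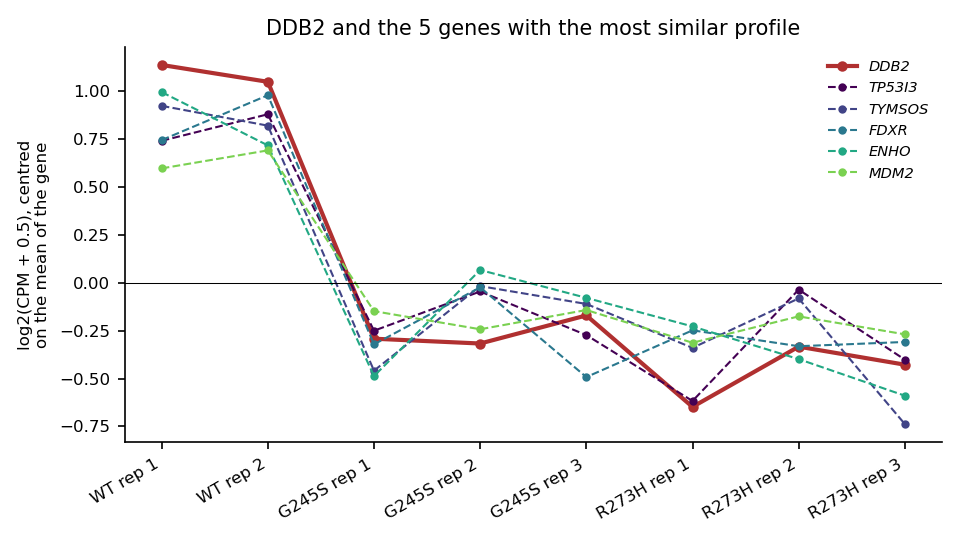
Level of DDB2 and of the 5 genes most like it in each fitted library (horizontal axis), as log2(CPM + 0.5) centred on the mean of the gene (vertical axis), where lines only join the points of 1 gene. The WT libraries lie highest for all of these genes, and DDB2 has the largest step between WT and mutants.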

How the data were processed

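RNA-seq of 9 libraries was used, 3 each of HEK293T lines expressing WT, G245S or R273H p53. The authors filtered reads with fastp 0.24.0, aligned them to GRCh38 with STAR 2.7.11, removed duplicates by molecular identifier and counted exons and 3′ UTRs with featureCounts (Subread 2.1.1), strand-specifically and with multi-mapping reads shared as fractions. The deposited values used are expected counts, not normalized, and were rounded to whole numbers for the fits. A further 9 columns of CPM deposited by the authors and 92 spike-in rows, with at most 1.33 counts in a library, were not used.

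Library totals were 1486315 to 9667306 counts. WT replicate 3 was left out because its total was below 4096044, 0.5 times the median of the other libraries. The study leaves out 1 WT replicate for quality and low reads, without naming it. Floors of 3 counts and counting errors cover counting error only. The p-values measure the spread between libraries the study describes as biological replicates. Whether the replicates of a group came from separate transductions is not given in the sources used here. If they came from the same line, the p-values hold no spread between lines. A difference between lines and one due to the p53 variant then cannot be told apart.

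Genes were filtered with filterByExpr, scaled with TMM and tested with edgeR 4.0.16 (glmQLFit and glmQLFTest) in R 4.3.3, limma 3.58.1, with Benjamini-Hochberg adjustment over all genes tested and a threshold of 0.05. Only the groups compared entered a fit, apart from both mutants against WT, which used all 3 groups. The alternatives were DESeq2 1.42.0, other scalings and filters, other WT libraries, leaving out each library, 1 fit of 3 groups, protein-coding genes only and a replicate block. The scripts were tested on simulated data and used data.table (1.17.8), Python 3.11.15, numpy 2.4.6, pandas 2.3.3 and matplotlib 3.10.9.

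The members and all gene lists were chosen with earlier results of these data known. Named genes were the 6 members, 14 partners, list genes past the threshold, neighbours of the members (a start within 1000 bases on the other strand, or an overlap), MDM2, CDKN1A and the 5 genes most like DDB2, while genes at the edge of a list were named after their values were seen. Gene positions are those of the table, 61463 of whose identifiers were in the GENCODE annotation of GRCh38, all on the same chromosome, and 91.8% with the same start or end. Sequences come from the GRCh38 genome, and promoters from RefSeq. A planned level check and some planned genes are left out here.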

Additional observations from a re-analysis of the deposited data

How the results depend on the processing

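DDB2 kept its direction and passed the threshold in all 19 alternatives for each mutant against WT and in all 21 for both mutants, with log2 fold changes of −1.47 to −1.34, −1.70 to −1.53 and −1.58 to −1.45. POLH stayed lower and did not pass in any of them. Without the filter on low counts XPC passed as well, so that 2 of 6 members passed in each of these comparisons. In that setting more genes were tested, and 144 of 35067 passed in G245S, 93 of 35173 in R273H and 122 of 37730 for both mutants. In R273H against G245S 125 of 36147 passed without the filter, where DESeq2 with the filter called 1. The cause was not tested.

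Between libraries of the same replicate number, the correlation of deviations from the group means ranged from −0.193 to 0.291. The highest value was that of replicate 2 of G245S and R273H. The WT mean included WT replicate 3, and libraries of different numbers were not compared. Whether replicate numbers pair the libraries was therefore not tested. With a replicate block, 2 members passed in G245S, DDB2 and XPC (log2 fold change −0.73, edgeR's adjusted p = 0.00173), and 76 genes passed in G245S, 47 in R273H and 59 in R273H against G245S, beside 20, 22 and 0. TYMS no longer passed for both mutants (edgeR's adjusted p = 0.0559). DDB1 in R273H was at 0.017 with the replicate block. With the replicate block and all 3 WT libraries, 74 and 12 genes passed in G245S and R273H, DDB1 in R273H was at 0.035, and ERCC5 was at −0.071 in G245S, −0.023 in R273H and −0.0098 for both.

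When all 3 WT libraries entered, 10 genes were called in G245S, and DDB1 in R273H was at 0.028. With WT replicates 1 and 3, 3 genes passed in G245S, 4 in R273H and 14 for both, DDB1 in R273H was at 0.020, and ERCC5 was at −0.087, −0.046 and −0.048. With WT replicates 2 and 3, 13 genes passed in R273H, RRM2B was at 0.0028, 0.069 and 0.035, DDB1 in R273H at 0.080, ERCC5 at −0.096, −0.049 and −0.063, and LSM3 for both at 0.072. With upper-quartile scaling DDB1 in R273H was at 0.0031, and with library size alone at 0.020, or at 0.0022 in R273H against G245S.

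Leaving out each library in turn, 10 to 30 genes passed in G245S (10 without G245S replicate 3, 13 without WT replicate 2), 16 to 29 in R273H, 0 to 3 in R273H against G245S and 17 to 36 for both (17 without WT replicate 2). Where 1 WT library was left, it was assumed to vary like the mutant libraries. The log2 values ranged from −0.033 to 0.072 for DDB1 in G245S, −0.052 to 0.048 in R273H, −0.043 to 0.060 for both and −0.059 to 0.012 in R273H against G245S. RRM2B ranged from −0.094 to 0.039 in R273H, −0.127 to 0.0092 for both and −0.0017 to 0.146 between the mutants. ERCC5 ranged from −0.059 to 0.285 in R273H and −0.179 to 0.158 between the mutants, XPC from −0.78 to −0.38 in G245S, −0.68 to −0.28 in R273H, −0.73 to −0.33 for both and −0.015 to 0.252 between the mutants, and LSM3 from −0.144 to 0.081 for both. No alternative turned the sign of DDB2, XPC or POLH against WT. At these depths a change of RRM2B or ERCC5 within the intervals given could not be detected.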

Other observations

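Repair pathways without a member were described in the same way for both mutants against WT. In base excision repair, which replaces small damaged bases, 0 of 22 genes passed edgeR's threshold, with a median log2 fold change of −0.03. Of these 22, 3 (13.6%) had an unadjusted p under 0.05, beside 6.90% of all genes tested. The flap nuclease FEN1 was at −0.23 and DNA ligase LIG1 at −0.21, with edgeR's adjusted p = 0.494 and 0.568. In mismatch repair 0 of 8 passed and none had an unadjusted p under 0.05, with a median of −0.11. In homologous recombination and the Fanconi pathway 0 of 29 passed and 3 (10.3%) had an unadjusted p under 0.05, with a median of −0.08. There RBBP8, which trims broken ends, was at −0.28 (edgeR's adjusted p = 0.372). In end joining 0 of 11 passed and 2 (18.2%) had an unadjusted p under 0.05, with a median of −0.04. DESeq2 called no gene of these 4 lists. FEN1, LIG1 and RBBP8 were named after their values were seen.

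Of the 84 genes that held an intact pair of p53 motifs near the start, 55 were tested for both mutants against WT. DDB2 was the 1 gene of these past the threshold in G245S, in R273H and for both mutants, which is 1.82% of them, beside 0.177% of all genes tested as lower for both mutants. This share rests on DDB2 itself. The median log2 fold change of the 55 was −0.02 for both, beside −0.0020 over all genes tested. Of 1999 genes with at most 1 mismatch, 1218 were tested for both mutants, and DDB2 and EDA2R passed, both lower (0.164%), while RRM2B, which is among them, did not.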
